A study of Mus musculus with 56 samples.

Results

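Krüppel-like factors are described here in the anterior hypothalamus of mice fed by day or by night. The genes were taken by name, as Klf2, Klf4, Klf6, Klf7, Klf9, Klf10, Klf13, Klf15 and Klf16 among the 17564 genes of the deposited table, and all 9 passed the filter on low values. The members were chosen by name and selected on measured levels in these mice, in particular a higher level of Klf15 in day-fed mice, so differences in level between regimens are given for these genes as a description without a test. C57BL/6J female mice of 9 weeks had food for 7 days either only in the 12 h of light (day time-restricted feeding, DRF, food from ZT0 to ZT12, where ZT0 is lights-on) or only in the 12 h of dark (night time-restricted feeding, NRF, food from ZT12 to ZT0). Poly-A RNA of the anterior hypothalamus was sequenced every 4 h from ZT0 to ZT24 (7 time points), with 4 mice in each of the 14 groups and 56 mice in all. The mice of ZT24 were other animals than those of ZT0. The groups used here hold no mice fed without restriction, and the tissue was bulk, so fewer cells of a type and less RNA per cell cannot be told apart.

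Krüppel-like factors are transcription factors that bind GC-rich and CACCC-containing DNA through zinc fingers at their C-terminal end, and members of the family recruit either coactivators or corepressors. Klf15 is known as a regulator of amino acid and glucose metabolism and, like Klf9, as a gene that glucocorticoid hormones induce. Klf9, Klf13 and Klf16 are closely related repressors that recruit the Sin3a corepressor, Klf10 is induced by transforming growth factor beta, Klf6 and Klf7 share a related activation domain and are expressed in neurons, and Klf2 and Klf4 are best known from endothelial cells.

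Normalized library sizes, recovered from the deposited values, ranged from 29591262 to 34493349 reads and are not the sequenced depth. The libraries resembled each other closely. The median correlation of a library with the others lay between 0.9851 and 0.9967, and was lowest in mouse 4 and mouse 3 of DRF at ZT16 (0.9851 and 0.9893) and mouse 2 of DRF at ZT20 (0.9914). Calls of the 9 factors that change without these 3 libraries are given both ways. Markers of the anterior hypothalamus were present, and all 9 listed genes passed the filter. Of the markers of other tissue, all 5 red blood cell genes were higher in DRF (median log2 difference 0.525, adjusted p under the threshold for 5 of 5 by limma). Their summed levels were 218 to 2380 CPM (median 441) in DRF and 193 to 526 CPM (median 313) in NRF. CPM stands for reads per 1e6 reads of the normalized library size.

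Per kilobase of transcript, Klf9 was the most abundant of the 9 factors, with a level of 21.0 ± 3.76 CPM per kb (mean ± SD over 56 mice). Its length could not be taken from the annotation and was found from the deposited values, and with the annotated length of 4815 bases the level would be 14.2 ± 2.55 CPM per kb. Klf15 (11.7 ± 1.83), Klf13 (10.7 ± 1.56), Klf6 (10.5 ± 1.33) and Klf16 (9.72 ± 1.26 CPM per kb) came next, and the ranges of these neighbours overlapped. Klf15 lay above Klf13 in 43 of 56 mice, Klf13 above Klf6 in 27 of 56 and Klf6 above Klf16 in 39 of 56. Klf7 followed at 7.09 ± 0.529 CPM per kb. The lowest levels were those of Klf2 (3.86 ± 0.719), Klf4 (1.91 ± 0.364) and Klf10 (1.67 ± 0.206 CPM per kb). Klf2 was above Klf4 in 56 of 56 mice and Klf4 above Klf10 in 39 of 56. A library held 129 to 329 reads of Klf2 or Klf4 and 157 to 285 of Klf10, against 780 to 1685 of Klf15 and 1584 to 3311 of Klf9.

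The start regions of 4 factors are shown because the results on daily course turn on these genes. Each is the 240 bases that end 11 bases before the RefSeq start on GRCm38.p6, printed in the direction of transcription. Klf15 lies on the plus strand with its window at chr6:90462326-90462565, Klf9 on the plus strand at chr19:23140976-23141215, Klf13 on the minus strand at chr7:63938926-63939165 and Klf6 on the plus strand at chr13:5861239-5861478. The windows of Klf9, Klf13 and Klf6 lie upstream of the genes, and the window of Klf15 lies inside its RefSeq gene record, which begins at 90461043 on chromosome 6. Capitals mark CACGTG (the E-box that the clock activators bind), TGACG (the core of the cAMP response element) and GGGCGG (the GC box of Sp and Krüppel-like factors), on either strand.
Klf15: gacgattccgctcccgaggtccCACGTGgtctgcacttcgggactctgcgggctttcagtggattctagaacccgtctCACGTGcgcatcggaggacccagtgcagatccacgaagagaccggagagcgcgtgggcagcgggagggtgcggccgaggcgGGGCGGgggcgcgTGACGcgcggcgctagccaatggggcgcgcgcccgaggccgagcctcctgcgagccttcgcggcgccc
Klf9: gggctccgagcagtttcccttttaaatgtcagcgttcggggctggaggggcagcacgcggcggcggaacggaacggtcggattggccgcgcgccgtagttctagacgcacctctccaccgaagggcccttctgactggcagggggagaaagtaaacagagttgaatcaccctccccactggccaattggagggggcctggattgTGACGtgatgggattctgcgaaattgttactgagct
Klf13: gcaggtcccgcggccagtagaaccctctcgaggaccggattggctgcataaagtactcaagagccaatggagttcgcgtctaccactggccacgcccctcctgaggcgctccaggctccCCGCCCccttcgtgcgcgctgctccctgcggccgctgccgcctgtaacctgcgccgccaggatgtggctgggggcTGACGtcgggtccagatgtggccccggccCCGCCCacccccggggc
Klf6: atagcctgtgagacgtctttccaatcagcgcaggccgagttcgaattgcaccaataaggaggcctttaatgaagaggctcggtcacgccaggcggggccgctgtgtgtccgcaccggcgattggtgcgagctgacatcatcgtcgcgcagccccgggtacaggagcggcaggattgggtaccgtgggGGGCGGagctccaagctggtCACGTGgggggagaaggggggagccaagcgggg

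CACGTG occurred in 5.69% of all 32851 mouse promoter windows of this length. Klf15 held 2 copies, 228 and 172 bases before the start, and Klf6 and Klf4 held 1 each, so that 3 of the 7 members with a RefSeq promoter had the motif. TGACG was found in 16.9% of all windows and in 5 of the 7 (Klf2, Klf4, Klf9, Klf13 and Klf15), GGGCGG in 31.3% and in 6 of the 7, and CACCC in 50.6% and in 5 of the 7. The longer TGACGTCA (1.44% of all windows), the D-box TTATGTAA (0.807%), AGGTCA (13.5%), the full glucocorticoid response element (0.00913%) and its left arm AGAACA (15.5%) had no match in the 7 windows. The 4 windows shown were GC-rich, at 71.7% for Klf15, 70.8% for Klf13, 64.2% for Klf6 and 59.6% for Klf9 against a median of 52.1% over all promoters. A match is a description of letters and not of a bound site.

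Klf15 had a daily course under both regimens and was the only one of the 9 factors that was rhythmic in DRF. In NRF mice its level was 27.6 to 29.3 CPM at ZT8, rose to 34.6 to 38.2 CPM at ZT12 and stood at 38.9, 36.5, 39.1 and 38.5 CPM in the 4 mice of ZT16, before it fell to 27.7 to 32.1 CPM at ZT20. In DRF mice the level was 28.1 to 33.0 CPM at ZT8 and 33.7 to 37.1 CPM at ZT12, and it reached 46.1, 39.7, 42.5 and 48.8 CPM at ZT16 before it fell to 33.1 to 35.8 CPM at ZT20. The highest level therefore fell at ZT16 in both, 4 h into the meal in NRF and 4 h after its end in DRF. The rhythm passed the test in NRF (BH.Q = 1.55e-05, combined JTK_CYCLE and Lomb-Scargle test over all transcripts) and in DRF (BH.Q = 0.00661). A 24-h cosine gave an amplitude of 0.26 ± 0.02 on the log2 scale (± SE) and a peak at ZT14.6 ± 0.372 h in NRF, and 0.21 ± 0.03 and ZT16.2 ± 0.545 h in DRF. Peak exceeded trough by 43.2% and 34.6%. The peak was 1.59 ± 0.66 h later in DRF, and the joint test of a difference in rhythm between regimens gave an adjusted p of 0.118 (limma), which was 0.0347 without ZT16 and 0.0446 without mice 3 and 4 of DRF at ZT16, and above 0.05 in the other 12 of 14 alternatives. The DRF call ended when mice 3 and 4 of ZT16, the 2 libraries that stood apart, were left out (BH.Q = 0.104), although the 2 remaining mice of ZT16 were at 39.7 and 46.1 CPM, above all DRF mice of the other time points. The DRF call held in 7 of its 15 alternatives and in none that left out the mice of 1 number from every group.

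Klf15 was also higher in DRF, which is the difference that entered the choice of genes. Averaged over the time points the log2 difference DRF minus NRF was 0.17 ± 0.02 (34.4 ± 4.88 CPM in DRF and 30.6 ± 4.68 CPM in NRF, mean ± SD, n = 28 each), or 12.4% more. The level was higher in DRF at 6 of 7 time points, the exception being ZT12, with group means of 35.4 CPM in DRF and 36.2 CPM in NRF. The 4 DRF mice and the 4 NRF mice did not overlap at ZT0, ZT16, ZT20 and ZT24. At ZT24 the NRF mice had 27.9, 26.4, 26.2 and 25.8 CPM and the DRF mice 29.4, 36.2, 33.6 and 33.1 CPM. Over all transcripts, such a separation with DRF above NRF was found for 7.29% at ZT0, 4.77% at ZT16, 3.92% at ZT20 and 3.28% at ZT24, and of the 16204 transcripts tested 5.55% were higher and 4.87% lower in DRF on average (limma, adjusted p under 0.05).

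**Figure D1:**
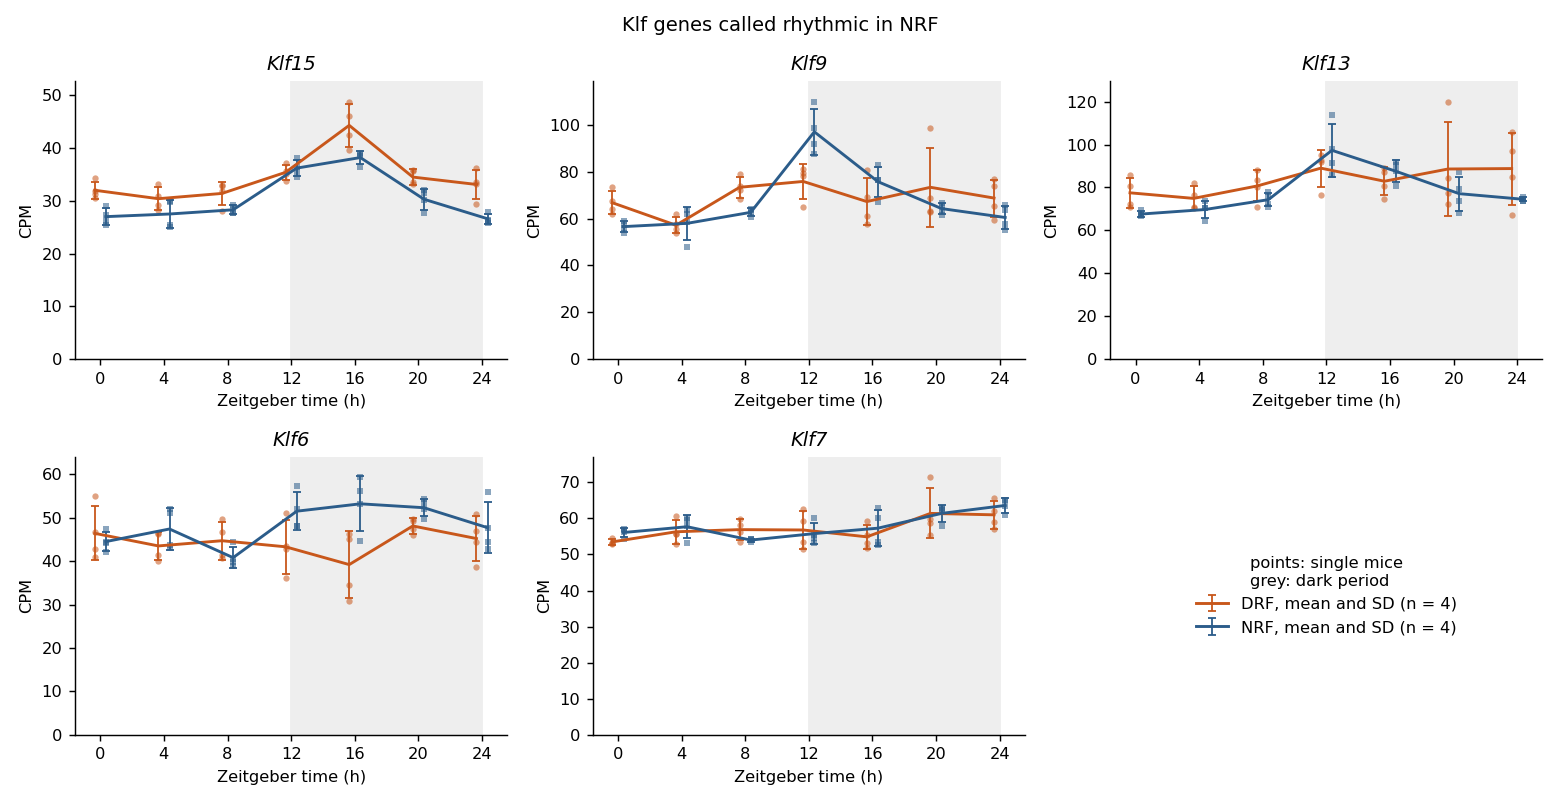
Levels of Klf15, Klf9, Klf13, Klf6 and Klf7 in CPM (vertical axes) against zeitgeber time in hours (horizontal axes). Each point is 1 mouse and the lines join group means with SD bars (n = 4), for DRF and NRF. Klf15 reached its highest group mean at ZT16 in both regimens, while Klf9 and Klf13 reached theirs in NRF at ZT12, where the 4 Klf9 values of 87.8 to 110.0 CPM lay above all 4 DRF values.

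Klf9 showed the clearest difference in daily course between the regimens. In NRF the 4 mice of ZT8 had 62.4, 64.3, 60.6 and 63.6 CPM and the 4 mice of ZT12 had 110.0, 87.8, 98.8 and 91.7 CPM, a difference of 54.9% in the means with no overlap. The level then fell without overlap to 67.2 to 82.9 CPM at ZT16 and to 61.6 to 66.6 CPM at ZT20. In DRF the mice of ZT8 already had 68.3 to 79.1 CPM and those of ZT12 had 65.0, 81.1, 79.3 and 78.1 CPM, a difference of 3.34%. The separated steps of the DRF mice came earlier in the day, as a fall from 62.0 to 73.5 CPM at ZT0 to 54.0 to 61.9 CPM at ZT4 and a rise to ZT8. Klf9 was rhythmic in NRF (BH.Q = 2.69e-05, amplitude 0.30 ± 0.04 log2, peak ZT13.6 ± 0.572 h, 52.6% from trough to peak). In DRF it did not pass the test (BH.Q = 1), and the fitted amplitude was 0.10 ± 0.05. The difference in rhythm between regimens passed for Klf9 as the only one of the 9 factors (adjusted p = 0.0479, limma). This count of 1 in 9 is near the share of 10.9% over all transcripts. For Klf9 the interaction of regimen and time point gave an adjusted p of 0.0084 (limma), and 13.0% of all transcripts passed it. The value of 0.0479 lies close to the threshold, and the call did not hold in 12 of its 14 alternatives. Over these 14 the adjusted p ranged from 0.0084 to 0.219. Without mice 3 and 4 of DRF at ZT16 it was 0.119. With mouse 2 of DRF at ZT20, which had 98.6 CPM beside 62.7, 68.8 and 63.4 CPM in the other mice, left out, it was 0.0224.

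Between the regimens, the Klf9 levels of single time points differed in both directions. DRF mice lay above NRF mice without overlap at ZT0 (62.0 to 73.5 against 53.7 to 59.0 CPM) and at ZT8, and below them at ZT12. The share over all transcripts was 7.29% for ZT0 and 4.65% for ZT8 with DRF above, and 2.84% for ZT12 with DRF below. Averaged over the day the log2 difference was 0.04 ± 0.04. The separated time points were thus of both signs, and the mean difference was the size of its standard error.

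Klf13, like Klf9, rose in NRF before the meal. The mice of ZT8 had 75.6, 78.1, 71.1 and 72.5 CPM and those of ZT12 had 114.0, 85.9, 97.7 and 91.3 CPM, a difference of 30.9% without overlap. Klf13 was rhythmic in NRF (BH.Q = 0.000108, amplitude 0.21 ± 0.03 log2, peak ZT14.0 ± 0.59 h) and did not pass in DRF (BH.Q = 1, amplitude 0.08 ± 0.05), and a difference in its rhythm between regimens did not pass (adjusted p = 0.125, limma). Values of DRF mice were scattered, with 72.3, 120.0, 84.2 and 77.5 CPM at ZT20, where 120.0 CPM is the library that stood apart. The average log2 difference DRF minus NRF was 0.09 ± 0.04. Groups were separated only at ZT0, where the DRF mice had 71.1 to 85.6 CPM and the NRF mice 66.6 to 69.4 CPM. Such a separation at ZT0 was found for 7.29% of all transcripts. Klf16, the third of these related repressors, had no such rise. It did not pass the combined test in either regimen (BH.Q = 1 in both). In NRF it had 25.6, 32.9, 29.8 and 29.6 CPM at ZT8 and 26.0, 25.1, 22.1 and 22.6 CPM at ZT12, a difference of −18.8% in the means. A limma fit of time points in NRF gave an adjusted p of 0.0349 for Klf16, and the 24-h cosine 0.0961, so a flat course is not shown. In DRF the 4 mice of ZT12 spread from 24.2 to 39.5 CPM. At ZT20 all DRF values of Klf16 (25.8 ± 2.12 CPM, SD, n = 4) lay above the NRF values (22.7 ± 1.31 CPM). The nearest NRF value was at 23.9 CPM, and 3.92% of all transcripts were separated in this way at ZT20.

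The rise from ZT8 to ZT12 in NRF, the 4 h before the night meal and lights-off, was shared by 5 of the 9 factors. Beside Klf9 and Klf13, the 4 mice of ZT12 lay above the 4 mice of ZT8 for Klf2 (31.8% in the means), Klf15 (27.9%) and Klf6 (26.2%), against 4.05% of all transcripts. In DRF none of the 9 rose without overlap at this step except Klf15 (12.6%, all transcripts 1.93%), and the means of Klf2, Klf13 and Klf6 differed by 14.2%, 10.2% and −3.09%. A fall in NRF without overlap from ZT12 to ZT16 was seen for Klf9 (all transcripts 4.27%) and from ZT16 to ZT20 for Klf9 and Klf15 (5.03%). In DRF, Klf9 fell from ZT0 to ZT4 (8.2%) and rose from ZT4 to ZT8 (3.82%), Klf15 rose from ZT12 to ZT16 (3.94%) and fell from ZT16 to ZT20 (5.08%), and Klf10 rose from ZT16 to ZT20 (3.86%). The summed level of 6 oligodendrocyte markers moved with the NRF rise, with group means of 6160 CPM at ZT8 and 7820 CPM at ZT12 (5820 to 7020 and 6650 to 8770 CPM), and that of 6 neuron markers with 3520 and 3840 CPM (3340 to 3800 and 3610 to 4190 CPM). Of the oligodendrocyte markers 3 of 6 were rhythmic in NRF by the combined test, and of the neuron markers 0 of 6 (2 at an unadjusted p under 0.05, and 2 by the limma cosine). At this NRF step the summed level of the 9 anterior hypothalamus markers fell. Its group means were 801 CPM at ZT8 and 575 CPM at ZT12 (694 to 922 and 455 to 738 CPM). The part of these cell types, or of the region dissected, in the rise was not tested.

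Klf6 and Klf7, which belong to 1 branch of the family, were rhythmic in NRF, with later fitted peaks than Klf9, Klf13 and Klf15. Klf6 passed with BH.Q = 0.0386 and an amplitude of 0.15 ± 0.04 around ZT17.2 ± 0.895 h, and Klf7 with BH.Q = 0.00622 and an amplitude of 0.08 ± 0.02 around ZT21.5 ± 1.09 h, which is 23.4% and 11.7% from trough to peak. Neither passed in DRF (BH.Q = 1 for both). The NRF call of Klf6 held in 4 of 13 alternatives (adjusted p 0.00447 to 0.973) and that of Klf7 in 8 of 13 (0.00403 to 0.598). Without ZT24 neither call held (BH.Q = 0.1 for Klf6 and 0.598 for Klf7). At ZT16 the NRF mice had 44.6, 53.1, 56.1 and 59.3 CPM of Klf6 and the DRF mice 45.2, 46.2, 34.5 and 30.8 CPM. The lower 2 of these are the libraries that stood apart, and without them the mean was 45.7 CPM and the log2 difference from NRF −0.21 in place of −0.45. At ZT20 the 4 DRF mice (46.0 to 49.7 CPM) lay just below the 4 NRF mice (49.7 to 54.3 CPM), a separation seen in 4.28% of all transcripts. The average log2 difference of Klf6 was −0.12 ± 0.04, and that of Klf7 was −0.02 ± 0.02, with no time point separated for Klf7. Klf7 was higher at ZT24 than at ZT0 in both regimens without overlap, by 0.18 log2 in each. In NRF these were 63.4, 60.9, 65.0 and 65.2 CPM at ZT24 and 57.2, 56.2, 54.3 and 56.9 CPM at ZT0. This comparison of 2 cohorts at the same clock time separated 11.2% of all transcripts upward and 10.3% downward in NRF, and 4.96% upward in DRF. In NRF it also separated Klf13 (0.14 log2) upward and Klf2 (−0.31 log2) downward, so the ends of the 24-h course were not equal for these 3 genes.

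Among the 9 factors 5 were thus rhythmic in NRF and 1 in DRF, beside 27.4% of all 16245 transcripts tested in NRF and 0.8% in DRF. The fitted amplitude was larger in NRF for 8 of the 9 (Klf4 being the exception), with a median over the 9 of 0.15 log2 in NRF and 0.09 in DRF, against 0.07 and 0.06 over all transcripts. The share of all transcripts with the larger amplitude in NRF was not counted. Some of the 8 differed little beside their standard errors, such as Klf16 (0.1 ± 0.04 in NRF, 0.09 ± 0.05 in DRF) and Klf2 (0.18 ± 0.05 and 0.13 ± 0.06). The spread between the 4 mice of a group was larger in DRF for 9 of 9 factors and for 79.3% of all transcripts. It was 0.19 log2 (SD) in DRF and 0.10 in NRF for Klf13, 0.17 and 0.11 for Klf9, and 0.09 and 0.08 for Klf15.

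**Figure D2:**
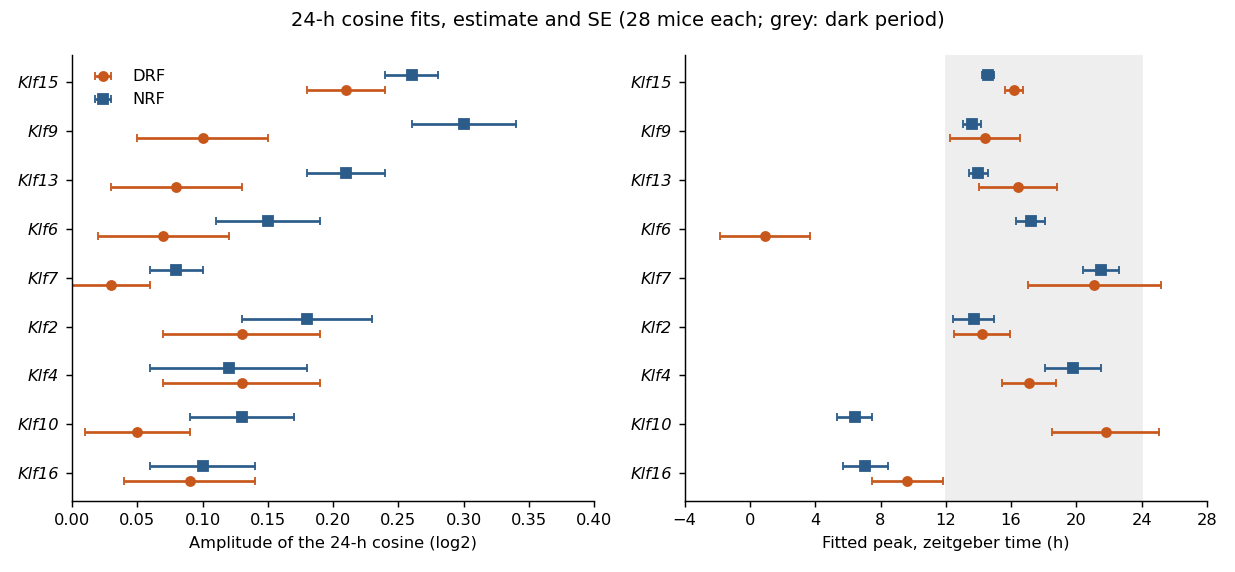
Amplitude (log2) and peak time (ZT, h) of a 24-h cosine for each of the 9 factors in DRF and NRF, with bars for the standard error. The amplitude of Klf9 was 0.30 in NRF and 0.10 in DRF, and the peaks of Klf15 in the 2 regimens lay at ZT14.6 and ZT16.2.

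Klf2 and Klf4, the endothelial factors, and Klf10 had low levels and no rhythm by the combined test in either regimen (BH.Q in NRF 0.118, 1 and 0.483). Klf2 ranged from 4.88 to 10.5 CPM over all mice, Klf4 from 4.15 to 8.67 CPM and Klf10 from 5.16 to 8.96 CPM. Klf2 was lower in DRF by 0.08 ± 0.05 log2 and Klf4 by 0.12 ± 0.06, with overlap at every time point. DRF mice of ZT12 spread widely for Klf2, with 6.07, 5.31, 10.5 and 9.12 CPM. Klf10 differed by 0.02 ± 0.04 on average and was separated at ZT20, as were 3.92% of all transcripts with DRF above. There the DRF mice had 7.27 to 8.02 CPM and the NRF mice 5.16 to 7.18 CPM. A limma fit of the 24-h cosine in NRF gave adjusted p values of 0.0183 for Klf2 and 0.037 for Klf10, so the absence of a call in the combined test does not show a flat course. Of the 8 endothelial markers none was higher in DRF on average, and 2 were lower by the test, Tek by 0.10 ± 0.03 log2 (adjusted p = 0.00903, limma) and Ly6c1 by 0.11 ± 0.03 (adjusted p = 0.0245). Their summed level was 179 to 228 CPM (median 199) in DRF and 182 to 244 CPM (median 210) in NRF. The Tek and Ly6c1 calls ended without ZT0 (0.121 and 0.183). The part of these cells in the levels of Klf2 and Klf4 was not tested.

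**Figure D3:**
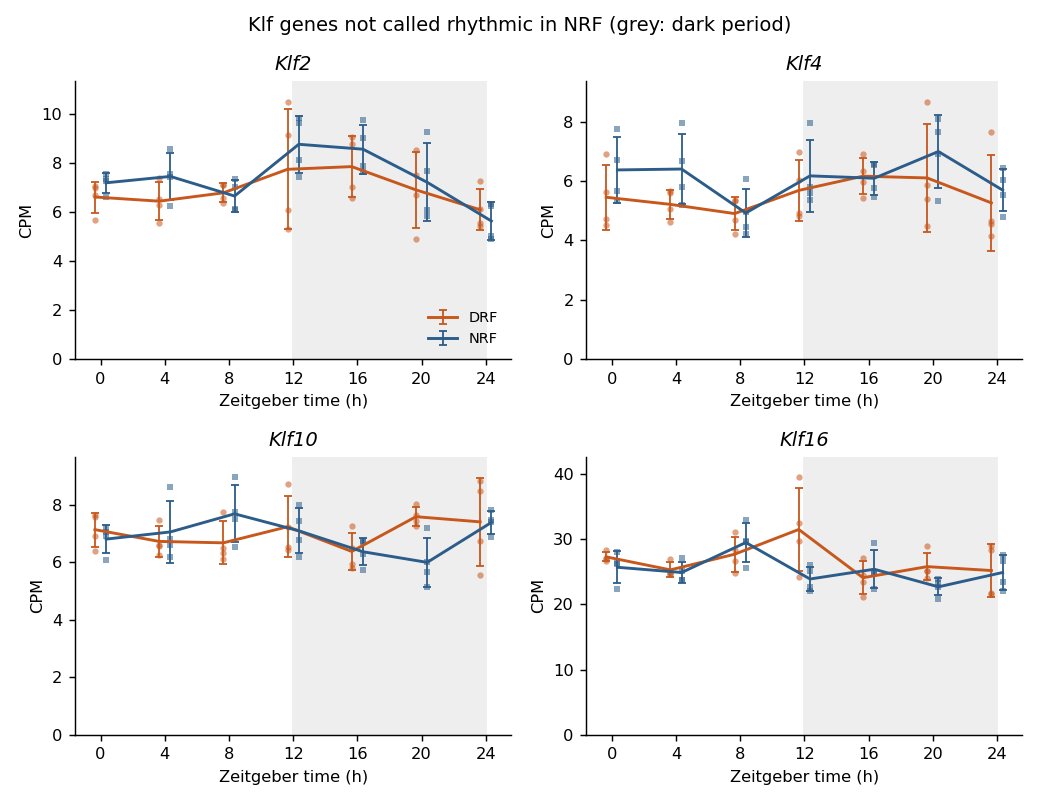
Levels of Klf2, Klf4, Klf10 and Klf16 in CPM (vertical axes) against zeitgeber time in hours (horizontal axes), with 1 point per mouse and lines through the group means with SD bars (n = 4) for DRF and NRF. The regimens overlapped at every time point for Klf2 and Klf4, and were separated at ZT20 for Klf10 and Klf16 (3.92% of all transcripts).

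**Figure D4:**
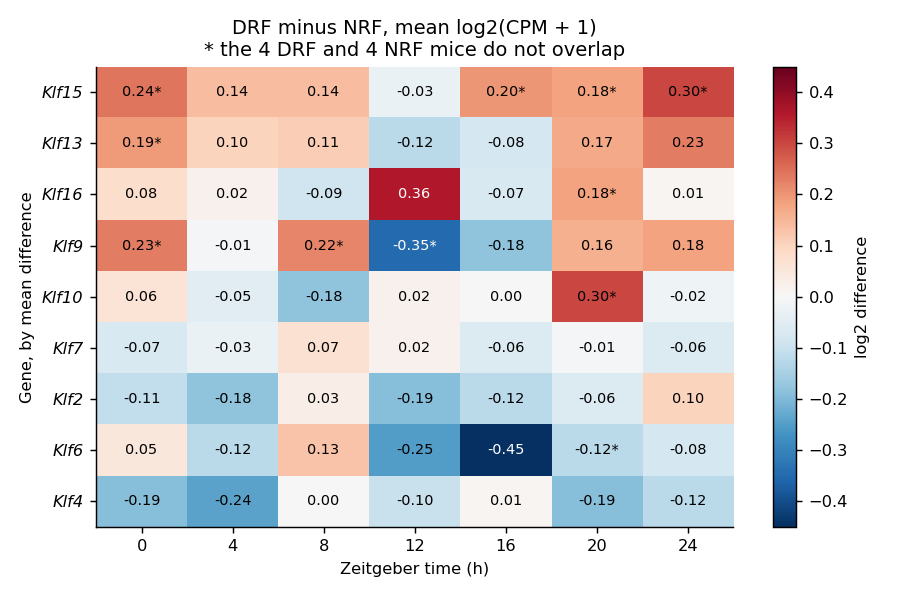
Log2 difference DRF minus NRF of the group means for each of the 9 factors (vertical axis) at each time point (horizontal axis, ZT in h). An asterisk marks time points at which the 4 DRF and 4 NRF mice did not overlap. These are 4 for Klf15, 3 for Klf9, and 1 each for Klf13, Klf6, Klf10 and Klf16. Over all transcripts, DRF lay above NRF without overlap in 7.29% at ZT0, 4.65% at ZT8, 4.77% at ZT16, 3.92% at ZT20 and 3.28% at ZT24. DRF lay below in 2.84% at ZT12 and 4.28% at ZT20.

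Whether factors moved together from mouse to mouse was asked after the group means had been removed, so that neither time nor regimen enters. Of the 36 pairs 7 passed (Pearson's r, 100000 shuffles of mice within groups, Benjamini-Hochberg over the pairs), all of them positive. The share of pairs that would pass over all transcripts was not measured, so the count does not set the family apart. Klf9 and Klf13 had r = 0.79 and rho = 0.74 over 56 mice (permutation p = 1e-05, the smallest possible, and 2e-05, adjusted p = 0.00018 and 0.00036), and r was 0.74 without the 2 farthest mice, 0.86 within DRF and 0.61 within NRF. Klf13 stood 17th of 16203 transcripts in likeness to Klf9 on this measure. Klf2 and Klf4 had r = 0.63 and rho = 0.61 (permutation p = 5e-05 and 4e-05, adjusted p = 0.0006 and 0.00048, r = 0.6 without the 2 farthest mice, 0.77 within DRF and 0.42 within NRF). Each of these was the transcript most like the other among 16203. Klf13 and Klf15 had r = 0.61 and rho = 0.6 (permutation p = 1e-05 for both, adjusted p = 0.00018 and 0.00036, and r = 0.61 without the 2 farthest mice, 0.7 within DRF and 0.45 within NRF). The other 4 pairs were Klf7 with Klf9 (r = 0.62, rho = 0.5, permutation adjusted p = 0.00295 and 0.0101), Klf6 with Klf7 (r = 0.53, rho = 0.53, 0.00153 and 0.00259), Klf6 with Klf9 (r = 0.52, rho = 0.59, 0.00384 and 0.00117) and Klf9 with Klf15 (r = 0.44, rho = 0.46, 0.0196 and 0.0133), and r was 0.53, 0.53, 0.51 and 0.42 without the 2 farthest mice. Without the 3 libraries that stood apart, r was 0.8 for Klf9 and Klf13, 0.6 for Klf2 and Klf4, 0.67 for Klf13 and Klf15, and 0.45 for Klf7 and Klf9. Many transcripts outside the family were closer than the partner in other pairs. In likeness to Klf6, Klf7 had rank 2159 and Klf9 rank 2310 of 16203. In likeness to Klf9, Klf7 had rank 362 and Klf15 rank 1771, and in likeness to Klf13, Klf15 had rank 378.

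By the same measure, the summed levels of the cell type markers moved with some of these factors. Those of 1 list moved against Klf9 and Klf6, which both moved with the neuron markers (r = 0.74 and 0.47). Of 72 combinations of 8 marker lists and 9 factors 13 passed, of which Klf13 had 5 and Klf9 had 4. Those that passed with the anterior hypothalamus markers were negative, at r = −0.6 and rho = −0.52 for Klf9 and r = −0.43 and rho = −0.44 for Klf6. The permutation adjusted p of r was 0.0137 for each, and r was −0.47 for each without the 2 farthest mice. The 6 neuron markers had r = 0.74 and rho = 0.73 with Klf9 and r = 0.7 and rho = 0.71 with Klf13 (permutation p = 1e-05, the smallest possible, adjusted p = 0.00036 for each), with r = 0.73 and 0.68 without the 2 farthest mice. The 6 oligodendrocyte markers had r = 0.65 and rho = 0.6 with Klf13 (permutation p = 0.00012 and 0.00015, adjusted p = 0.00288 and 0.0036). None of the 8 lists passed with Klf15, Klf2, Klf4 or Klf10, and the endothelial markers had r = 0.41 with Klf2 and 0.38 with Klf4. The part of the markers in the likeness of Klf9 and Klf13 was not tested.

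**Figure D5:**
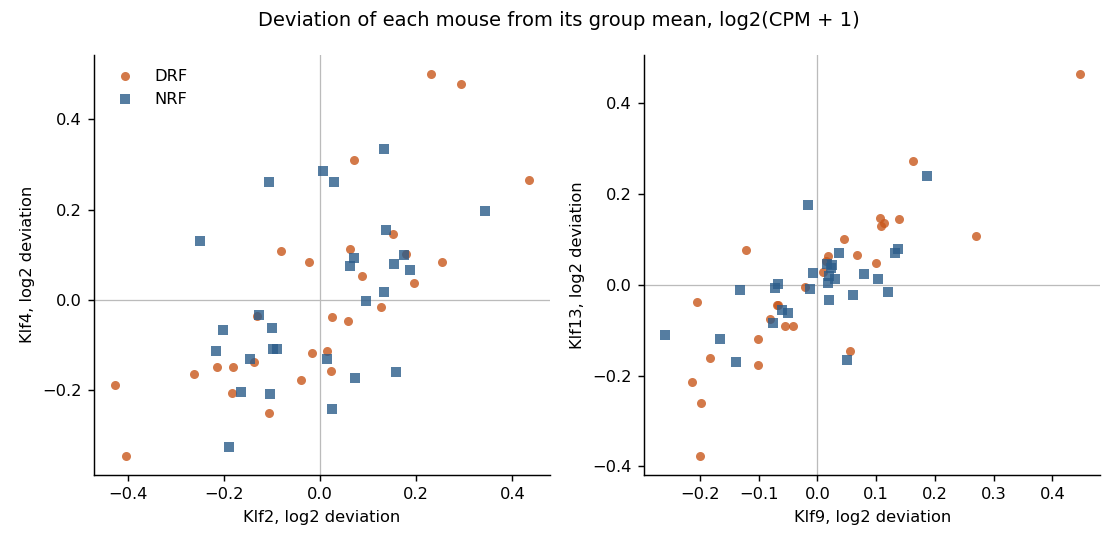
Deviation of each mouse from the mean of its group, in log2(CPM + 1), for Klf4 against Klf2 and for Klf13 against Klf9, with DRF and NRF mice marked. The correlation over the 56 mice is 0.63 in the first and 0.79 in the second, where the point at the upper right is mouse 2 of DRF at ZT20.

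Over the 14 group means, which share the same mice and time points, Klf9 and Klf13 had r = 0.91 (0.98 over the 7 NRF means and 0.76 over the 7 DRF means), Klf13 and Klf15 had 0.76, and Klf9 and Klf15 had 0.63. By the same measure over 14 group means the transcripts outside the family most like Klf15 were Fkbp5 (r = 0.951), Tsc22d3 (0.919) and Adipor2 (0.914). Those most like Klf9 were Sgk1 (0.944), Net1 (0.917) and Arl4d (0.916), and those most like Klf13 were Ppp1r16b (0.943), Ptgfrn (0.93) and Mertk (0.915). For Klf6 they were Zmat4 (0.938), Otud1 (0.919) and Gabra4 (0.918), and for Klf7 Ppm1a (0.92), Cdh2 (0.918) and Cd47 (0.916). The likeness was lower for the nearest transcripts of the others, namely Slc25a33 (0.907), Elovl1 (0.877) and Sox8 (0.871) for Klf2, Commd6 (0.909), Chmp5 (0.849) and Srp19 (0.848) for Klf4, Myoz2 (0.89) and Zp1 (0.854) for Klf10, and Fam117a (0.903), Penk (0.903) and Chrm1 (0.897) for Klf16. These are the highest of many correlations and are given as a description.

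Of the other 8 genes of the family, 1 was rhythmic in NRF and 1 differed in level. Klf17, with 0 to 4 reads a library, did not pass the filter. Of the 7 tested, Klf12 was rhythmic in NRF (BH.Q = 0.00451, 91.2 ± 9.39 CPM over 28 mice), none was rhythmic in DRF by the combined test (0 at an unadjusted p under 0.05, 1 by the limma fit of time points) or differed in rhythm by limma (1 at an unadjusted p under 0.05), and Klf5 was higher in DRF by 0.16 ± 0.04 log2 (4.62 ± 0.704 against 4.02 ± 0.553 CPM, adjusted p = 0.0105, limma). Klf3, Klf8 and Klf11 were at 27.0, 9.44 and 9.42 CPM in DRF and 27.1, 9.88 and 9.79 CPM in NRF. Klf1 and Klf14 were close to the limit of detection, with at most 12 and 20 reads a library. The Klf12 call held in 5 of 10 alternatives (adjusted p 0.00487 to 0.226) and ended without ZT24 and without the mice numbered 1, 2 or 3. The Klf5 call held in 9 of 13 alternatives and ended without ZT0 (adjusted p = 0.0825) and without the mice numbered 1, 3 or 4 of every group (0.158, 0.0644 and 0.086).

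Among partners of the family, 2 of 3 coactivators were higher in DRF. Of these acetyltransferases, Ep300 was higher by 0.10 ± 0.03 log2 (adjusted p = 0.00658) and Crebbp by 0.09 ± 0.02 (adjusted p = 0.00186, both limma), all 3 were rhythmic in NRF and none in DRF by the combined test (0 also at an unadjusted p under 0.05 and by limma), and Kat2b differed in rhythm (adjusted p = 0.0405) while its level difference was −0.03 ± 0.04 (adjusted p = 0.654, limma). With the mice of any 1 number left out, the count in NRF was 1 of 3. Of the 6 corepressors, which include Sin3a, Hdac1 and Ctbp1, 3 were rhythmic in NRF (1 to 4 with the mice of 1 number left out), and Sin3a was higher in DRF by 0.06 ± 0.02 (adjusted p = 0.00819). Of the 9 Sp factors, which bind the same GC boxes, only Sp3 was rhythmic in NRF (BH.Q = 0.0243, held in 4 of 10 alternatives), and by limma 0 differed in rhythm (2 at an unadjusted p under 0.05) and 0 in level (0 unadjusted). The median level difference was 0.092 log2 for the coactivators and 0.001 for both the corepressors and the Sp factors, against −0.002 over all transcripts. The level call of Ep300 held in 13 of 13 alternatives, that of Crebbp in 12 (adjusted p = 0.0981 without the mice numbered 4) and that of Sin3a in 9, ending without ZT0 (0.0782) and without the mice numbered 1, 3 or 4 (0.0871, 0.064 and 0.0638). The Kat2b difference in rhythm held in 7 of 14 (0.00353 to 0.348), and was 0.223 without mice 3 and 4 of DRF at ZT16.

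Of 4 enzymes of amino acid breakdown that Klf15 is known to regulate, only Prodh differed in level or in the 24-h cosine between regimens. Prodh begins the degradation of proline. It was higher in DRF by 0.15 ± 0.03 log2 (25.3 ± 5.39 against 22.3 ± 2.74 CPM, adjusted p = 0.00276, limma), and it was rhythmic in NRF (BH.Q = 0.00193) and in DRF (BH.Q = 0.00027). Its amplitude was 0.17 in NRF with a peak at ZT14.8 and 0.39 in DRF with a peak at ZT18.9, and this rhythm difference had an adjusted p of 5.37e-05 (limma) and held in 14 of 14 alternatives. The level call held in 12 of 13, with an adjusted p of 0.0706 without the mice numbered 3. Bcat2, the mitochondrial aminotransferase of branched-chain amino acids, was rhythmic in NRF (BH.Q = 0.00613, held in 5 of 10 alternatives). Its interaction of regimen and time point gave an adjusted p of 0.0281, and the fit of time points in DRF 0.000471 (both limma). The cosine difference of Bcat2 did not pass (adjusted p = 0.573, limma), and Gpt and Tat passed no test. Tat was close to the limit of detection, at 0.0666 to 0.587 CPM over all mice, so its lack of a call says little.

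The 10 genes known to respond to glucocorticoids, fixed with earlier results of these data in view, had a median level difference of 0.112 log2, and 8 were rhythmic in NRF and 3 in DRF (5 to 8 and 1 with the mice of 1 number left out). Tsc22d3 was rhythmic in NRF (BH.Q = 1.43e-06) and DRF (BH.Q = 0.000104), and Fkbp5 likewise (4.16e-05 and 0.0252), while Cdkn1a was rhythmic in DRF (0.0272). Fkbp5 (0.16 ± 0.04 log2, adjusted p = 0.00378), Zbtb16 (0.33 ± 0.09, adjusted p = 0.0178) and Per1 (0.14 ± 0.04, adjusted p = 0.0139, all limma) were higher in DRF. These 3 level calls ended without the mice numbered 3 (adjusted p = 0.0759, 0.0767 and 0.131), and those of Zbtb16 and Per1 also without the mice numbered 4 (0.129 and 0.0866) and without ZT0 (0.19 and 0.162). The DRF rhythm held in 10 of 12 alternatives for Tsc22d3, 1 of 12 for Fkbp5 and 4 of 12 for Cdkn1a. Tsc22d3 and Per1 differed in rhythm (adjusted p = 0.0384 and 0.0101, limma), in 7 and 10 of 14 alternatives. Sgk1 had an amplitude of 0.74 log2 in NRF (BH.Q = 0.000444) and 0.32 in DRF, where it did not pass.

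Of the 17 clock genes, which include Per1, 15 were rhythmic in NRF and 4 in DRF, 8 differed in rhythm, and 4 were higher and 1 lower in DRF. With the mice of 1 number left out, 13 to 15 were rhythmic in NRF and 0 to 2 in DRF, and the lower gene, Arntl (adjusted p = 0.0497, limma), held in 4 of 13 alternatives. Of the 10 immediate early genes 0 were rhythmic by the combined test in either regimen (0 in NRF and 1 in DRF at an unadjusted p under 0.05, and 4 and 0 by the limma fit of time points), 0 differed in level by limma (1 at an unadjusted p under 0.05), and Npas4 differed in rhythm (adjusted p = 0.0187). Of the remaining marker lists, in DRF the oligodendrocyte list had 3 of 6 genes lower (median −0.129 log2), the astrocyte list 1 of 7 lower, the microglia list 1 of 6 lower, the neuron list 1 of 6 higher and 1 lower, and the choroid plexus list of 5 and the anterior hypothalamus list of 9 none.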

How the data were processed

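The authors cleaned paired-end reads with SOAPnuke, mapped them with HISAT2 and Bowtie2 on the mouse build mm10 and estimated gene levels with RSEM. The deposited values, named TPM by the authors, are a score here, since each is log2(1 + CPM) divided by gene length and scaled per mouse. Reads were recovered from them (whole, to a mean distance under 0.1 read, for 15587 of 17564 genes and all 9 members), and log2(CPM + 1) was analysed. The filter asked for a deposited value of 1 or more in 80% or more of the 56 mice. Rhythm was tested on the deposited values of 16245 transcripts with JTK_CYCLE and Lomb-Scargle p-values combined (Python 3.11.15, periods of 20 to 28 h). On the 16204 with recovered reads, regimens were compared with limma 3.58.1 in R 4.3.3, with Benjamini-Hochberg adjustment over all transcripts at 0.05. Members and lists were chosen with earlier results of these data known. Named are the members, the other Krüppel-like factors, the 3 nearest transcripts of each member, and list genes past a test or up to 4 examples per list, and 1 item is not reported here. The combined rhythm test and the limma tests were tried on simulated data. Alternatives were other scales, filters, tests and left-out mice or time points. Promoter sequences are from RefSeq (GRCm38.p6, 7 of 9 members matched). Replicates are separate mice.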

Additional observations from a re-analysis of the deposited data

Results flagged for a closer look

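Within 2 of the 126 groups of 4 mice (1.59%) 1 mouse lay far from the other 3, measured as its gap to the nearest mouse over the range of the group, where chance gives about 1 in 20. For Klf7 in NRF at ZT20 the gap was 0.903 of the range (57.9 CPM against 62.4 to 62.9 CPM), and for Klf16 in DRF at ZT4 it was 0.854 (27.0 CPM in mouse 4, with the lowest mouse at 24.6 CPM).

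The daily rhythm differed between DRF and NRF for Klf9, with an adjusted p of 0.0479 (limma, joint test of the 24-h cosine terms, adjusted over all transcripts). Of all transcripts 10.9% passed this test, and the Klf9 call held in 2 of 14 alternatives. Among the listed genes the rhythm also differed for Prodh (5.37e-05), the acetyltransferase Kat2b (0.0405), Tsc22d3 (0.0384), Per1 (0.0101) and the immediate early gene Npas4 (0.0187). Of the clock genes, Arntl had an adjusted p of 0.0448, Nr1d1 of 0.00188, Nr1d2 of 0.0212, Dbp of 0.000556, Nfil3 of 0.0107, Ciart of 0.00327 and Bhlhe41 of 0.00274.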

How the results depend on the processing

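Klf9, Klf13 and Klf15 were rhythmic in NRF in 12 of 13 alternatives each, the exception being Lomb-Scargle alone, which called 0 of the 9 factors in either regimen and 0 of 16245 transcripts (unadjusted p under 0.05 for 3270 in NRF and 210 in DRF). Without ZT24, 3 factors (Klf9, Klf13 and Klf15) were rhythmic in NRF, and with the mice of 1 number left out of every group 3 to 4. Klf15 in DRF was called in 7 of 15 alternatives (adjusted p 0.000249 to 1). The count was 0 with JTK_CYCLE alone, without ZT16, without mice 3 and 4 of DRF at ZT16 (chosen after seeing the data) and with the mice of any 1 number left out (0 to 0). The difference in rhythm was called for 0 factors on log2(deposited value + 1) or + 0.1, with no filter, without ZT0, without ZT24 and with any 1 number left out (0 to 0), and for 2 factors, Klf6 and Klf9, without mouse 2 of DRF at ZT20 (chosen after seeing the data). Without ZT16, and without mice 3 and 4 of DRF at ZT16, it was called for Klf15 (0.0347 and 0.0446) and not for Klf9 (0.0981 and 0.119). The replicate block also gave 0 (Klf9 0.0569). Same-numbered mice did not deviate together in the median (r 0.00821 and lowest −0.522 over 364 pairs, and over 0.1 in 5 of the 28 pairs within a time point). Whether some of the same-numbered mice were handled together was not tested. Between 4 and 5 factors stayed above 0 in DRF minus NRF, and 6 to 9 had the larger amplitude in NRF. The Klf15 level difference ranged from 0.05 to 0.19, the lowest on the compressed deposited scale. Of the transcripts that differed in level, 53.3% were higher in DRF, 72.1% on the deposited scale and 61.5% after median centring. Counts over all transcripts ran from 0 to 7071 rhythmic in NRF and 0 to 1585 in DRF. The level differences of Klf9 (−0.02 to 0.07) and Klf10 (−0.01 to 0.06) changed sign, and without the mice numbered 2 the higher share was 49.8%. Among the level calls of listed genes outside the 9 factors, 0 changed sign in an alternative. Other results were not scored for a reversal. Counting error weighs most on Klf4, Klf10 and Klf2, with 129 to 329 reads a library.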
